A study of Mus musculus with 45 samples.

Results

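Cluster C1 is a group of 138 nuclei, out of 34073 nuclei of Ter119+ erythroblasts, that the authors' clustering set apart from the large clusters of late erythroblasts. Its members are all nuclei to which the deposited table of nuclei gives the cluster name C1, from 1 of the 2 identical copies that the table holds. The authors' classes, which were not used to choose the members, call 113 of them Late, 24 Int and 1 Early. They were set beside the other 17342 nuclei of class Late, which lie in clusters C2 and C3, within the same library. Which measurements were clustered is not given in the sources used here, and accessibility is counted as used. Every difference in level between C1 and the other Late nuclei is therefore given as a description, with no test.

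The series holds 45 samples, of which 6 are used here: the ATAC libraries of 10x Genomics multiome preparations from single nuclei, 3 from Stag2 WT and 3 from Stag2 KO mice. Ter119 marks the surface of cells of the red lineage. The 3 WT and the 3 KO samples share the treatment: nuclei were taken between 6 and 8 weeks after the final dose of pIpC, a compound commonly given to switch on an inducible Cre recombinase. The Cre driver, the animals' age and sex, and any preparation batch are not given in the sources used here. Nor do the labels say whether the replicates came from separate animals, so p-values below measure the spread between these samples.

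Erythroblasts shrink, condense their chromatin, fill with hemoglobin and finally expel the nucleus. Gata1 and Klf1 are the transcription factors that drive this programme, and Slc4a1, the anion exchanger band 3, is a major protein of the red cell membrane. Stag2 belongs to cohesin, a ring-shaped complex which holds chromatin loops and sister chromatids, and its close relative Stag1 can take its place in the ring. ATAC-seq cuts open chromatin with a transposase, so the fragments of a nucleus show where its chromatin is accessible. The deposited gene score gathers such fragments around each gene: it measures accessibility and not RNA, and neighbouring genes share fragments.

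C1 was found in every library and in both genotypes. WT replicates 1, 2 and 3 held 23, 27 and 25 C1 nuclei, and KO replicates 1, 2 and 3 held 20, 21 and 22. Of C1 and other Late nuclei together, C1 made up 0.789% (Wilson 95% interval 0.669% to 0.932%, counting error only). By library this share was 0.521%, 0.912% and 0.852% in WT and 0.926%, 0.834% and 0.882% in KO, so that WT replicate 1 stood below the other 5 libraries. The whole of C1 rests on 641748 fragments, between 61066 and 146668 per library, against 13068183 to 30338031 per library in the other Late nuclei. Among all nuclei 725 barcodes occurred in more than 1 library; 3 C1 nuclei carried such a barcode, and 0 barcodes were shared by C1 nuclei of different libraries.

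A few sequences show the loci that the gene results below turn on. All lie on chromosome 8 and are credited to RefSeq, build GRCm38.p6. The promoter is that of Klf1, the marker gene whose score differed most from the other Late nuclei, at chr8:84901732-84901981 on the plus strand, 250 bases before RefSeq's gene start. Capitals mark the only copy of GATAA or its reverse complement TTATC, the core letters of a GATA motif, found by searching both strands. The microRNA is mir-7240, whose gene had the largest upward difference between C1 and the other Late nuclei among genes with a mean score of at least 100 that were higher in 6 of 6 libraries. Its mature arms lie at chr8:70798135-70798155 and chr8:70798172-70798192, with the seed, bases 2 to 8, in capitals.
Klf1 promoter: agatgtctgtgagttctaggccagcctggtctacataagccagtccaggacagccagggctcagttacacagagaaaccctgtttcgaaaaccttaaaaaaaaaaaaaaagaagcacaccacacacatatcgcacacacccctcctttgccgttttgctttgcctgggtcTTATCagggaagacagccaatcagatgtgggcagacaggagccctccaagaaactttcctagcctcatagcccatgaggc
mmu-miR-7240-5p: uUGGAGAGgaccgccgucgga
mmu-miR-7240-3p: cGCCGUUGguccucuccaaca
The same letters occur in 7418 of 32851 promoter windows of this length (22.6%), so their presence marks nothing particular to Klf1. The seeds of the arms differ from each other.

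The 3 marker genes given for these cells were scored in C1, though with different patterns. Klf1 (8, 84901928 to 84905295, plus strand) had library scores, per 1000000 of summed gene score, of 348, 476 and 405 in the WT and 235, 153 and 230 in the KO libraries of C1, against 231, 221 and 210 and 178, 189 and 199 in the other Late nuclei. It was higher in C1 in 5 of 6 libraries, by 0.48 ± 0.51 on the log2(score + 5) scale used for every difference of gene scores here (SD, n = 6 libraries). A score of Klf1 above 0 was found in 53.6% of C1 nuclei and in 41.5% of the 665 Late nuclei nearest to them in number of fragments. Against the 1 nearest of each, Klf1 differed by 0.77.

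Slc4a1 was the most evenly present of the markers. Its scores in C1 were 410, 386 and 533 in WT and 542, 575 and 330 in KO, against 511 to 556 in the other Late nuclei, and C1 was lower in 4 of 6 libraries (-0.21 ± 0.30). Of the C1 nuclei, 76.8% had a score for it, against 82.6% of the depth-nearest Late nuclei. Gata1, on chromosome X, scored 60.1, 112 and 116 in WT and 54.2, 92.1 and 124 in KO against 62.0 to 74.6. It was higher in 4 libraries and lower in 2 (0.34 ± 0.46). Without the C1 nuclei above their library's median doublet enrichment it turned to -0.32, where the median over all genes past the filter was -0.47. All 3 markers were thus scored in every C1 library.

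C1 nuclei held fewer fragments than the other Late nuclei. Library medians were 4217, 4016 and 4463 fragments per nucleus in WT and 3558, 2237 and 3682.5 in KO, against 6908.5, 6575 and 5711.5 and 6064.5, 6112 and 6550. C1 was lower in 6 of 6 libraries, by 2625 ± 841 fragments (SD, n = 6). By means over nuclei it was lower in 5 of 6, the exception being WT replicate 3, at 5867 against 5723. Over all C1 nuclei the median was 3555.5, with quartiles at 2247 and 5375.25 and a range from 1020 to 17086. The median number of genes with a score was lower with it, 3098 ± 516 against 5002 ± 249.

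The fragments of C1 were shorter on balance. The nucleosome ratio sets fragments that span nucleosomes against nucleosome-free ones; its library medians in C1 were 0.773, 0.723 and 0.644 in WT and 0.804, 0.839 and 0.788 in KO, against 0.913, 0.850 and 0.754 and 0.917, 0.960 and 0.874. The difference was -0.116 ± 0.0183, lower in 6 of 6 libraries. Against the 1 Late nucleus of the same library nearest in fragments to each C1 nucleus the difference was -0.0805 ± 0.0519, again lower in 6 of 6. Each C1 nucleus had a nearest Late nucleus of its own, so this depth-matched set also held 138 nuclei. A lower nucleosome ratio was not particular to C1. The WT nuclei of cluster C2 had medians of 0.780, 0.748 and 0.715, also below the other Late nuclei of each WT library. The KO nuclei of C3, at 0.933, 0.981 and 0.823, were below theirs only in KO replicate 3. Int nuclei outside C1 averaged 0.830, against 0.878 in the other Late nuclei (means of library medians).

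The share of fragment ends in peaks was near that of the other Late nuclei, while other quality measures differed in some libraries. Ends in peaks made up 62.8% of fragment ends in C1 and 63.0% in the other Late nuclei (means of library medians, difference -0.114 ± 1.10 percentage points). Enrichment at transcription start sites was higher in C1 in 5 of 6 libraries (1.96 ± 2.27), the exception being WT replicate 3, at 33.0 against 35.6. Ends in blacklisted regions, which gather signal in any sample, had higher library medians in C1 in KO replicate 1 (by 1.76 percentage points) and KO replicate 2 (by 1.61) and lower ones in the other 4 libraries, by 0.719 or less; by means of nuclei they were higher in 5 of 6 libraries. Single nuclei stood apart from their library. In C1, 6 of 138 nuclei had under 40% of their ends in peaks, 4 of them in WT replicate 3, with the lowest at 5.76%; of the other Late nuclei it was 92 of 17342, a smaller share.

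The authors' doublet measures were not higher in C1 than in all other Late nuclei. The doublet enrichment was lower in C1 in 6 of 6 libraries (-0.275 ± 0.168), but in 4 of 6 against the 5 depth-nearest Late nuclei of each (-0.0804). Against the 1 depth-nearest Late nucleus of each it differed by -0.178, -0.257 and -0.156 in WT. In KO it was higher in C1 in this comparison, by 0.114, 0.114 and 0.0286. A doublet score above 0 was listed for 14 C1 nuclei (10.1%) and for 14.3% of the other Late nuclei. The 1 Early nucleus, from KO replicate 1, had the most fragments of C1, 17086, and a doublet score of 19.4.

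**Figure D1:**
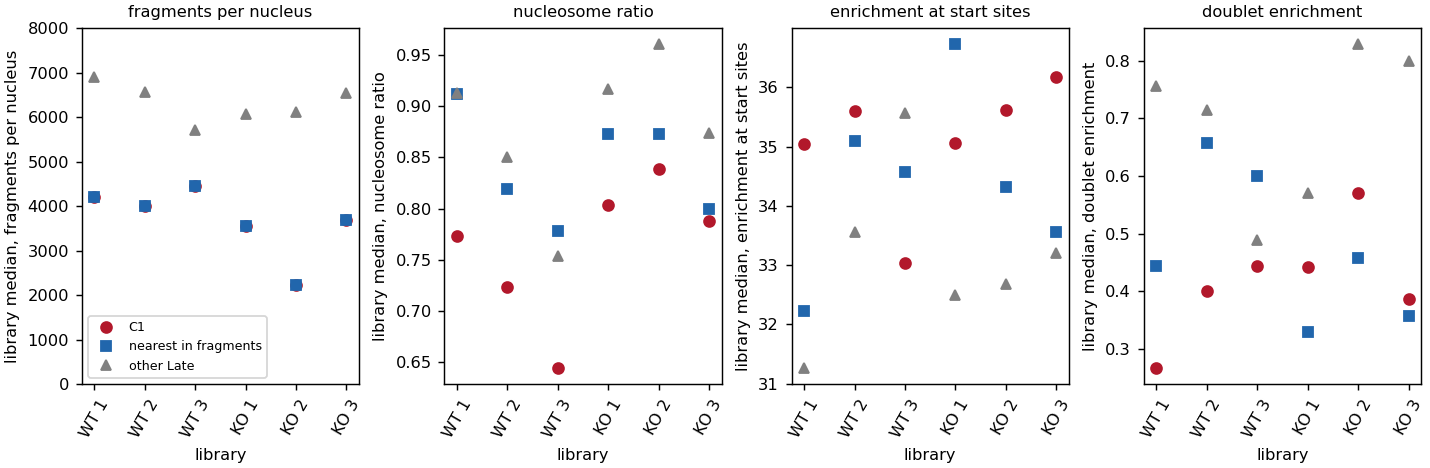
Library medians of 4 quality measures (y axes, fragments per nucleus and 3 unitless measures) in C1, in the 138 Late nuclei nearest in fragments and in all other Late nuclei, for each of the 6 libraries (x axis). C1 sits below both Late sets in nucleosome ratio in all 6 libraries, while the depth-nearest set matches it in fragments by construction; the axes of the last 3 panels do not start at 0.

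The gene score of C1 nuclei was unevenly spread over the chromosomes. For each nucleus the gene score was summed over each of the 19 autosomes, and each sum was divided by the median of the same sum over the other Late nuclei of its library; this ratio is called the relative share. In 91 of 138 C1 nuclei (65.9%, Wilson 95% interval 57.7% to 73.3%) at least 1 autosome had a relative share under 0.5. The same held for 37 of the 138 depth-nearest Late nuclei (26.8%, 20.1% to 34.8%) and for 12.9% of all other Late nuclei. These thresholds were chosen after the data were seen. A low share of gene score can come from fewer fragments or from less open chromatin on that chromosome, and the gene scores cannot tell these apart.

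Every library showed it. In C1 the share of such nuclei was 65.2% in WT replicate 1, 63.0% in WT replicate 2 and 15 of 25 nuclei in WT replicate 3. The KO replicates had 14 of 20 nuclei, 66.7% and 72.7%. In the depth-nearest Late nuclei it was 13.04%, 25.9% and 8.00% in WT and 9 of 20 nuclei, 42.9% and 31.8% in KO. C1 was thus above its depth-nearest set in 6 of 6 libraries. Among all other Late nuclei the share was 8.01% to 9.45% in WT and 16.3% to 20.5% in KO.

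Stricter thresholds left fewer nuclei. A relative share under 0.25 occurred in 37 C1 nuclei (26.8%), 12 depth-nearest nuclei (8.70%) and 2.22% of other Late nuclei; here KO replicate 1 went the other way, with 4 of 20 nuclei in C1 and 5 of 20 in the depth-nearest set. A share under 0.1 occurred in 10 C1 nuclei (7.25%), in 0 of the 138 depth-nearest nuclei, which allows a share of up to 2.17% (3 nuclei of 138, counting error only), and in 58 other Late nuclei (0.334%).

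**Figure D2:**
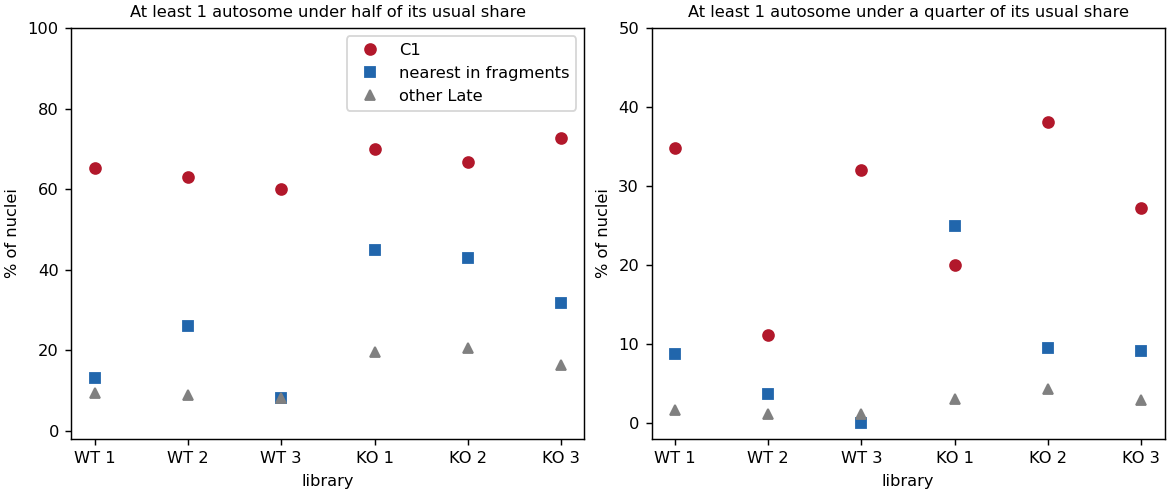
Percent of nuclei (y axis) with at least 1 autosome under 0.5 (left) or under 0.25 (right) of its usual share, by library (x axis), in C1, in the depth-nearest Late nuclei and in all other Late nuclei. On the left C1 lies above both Late sets in all 6 libraries, with its highest value at 72.7%; on the right the depth-nearest set of KO replicate 1, at 5 of 20 nuclei, exceeds C1 at 4 of 20.

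Depth moved with this measure. The 91 C1 nuclei with a low autosome had a median of 2755 fragments, the 47 others 5538. Among nuclei with at least 2000 fragments the share was 61.8% in C1 (68 of 110) and 22.7% in their nearest Late nuclei. Among those with at least 5000 fragments it was 38.1% in C1 (16 of 42, interval 25% to 53.2%), 4.76% in their nearest Late nuclei (2 of 42) and 5.51% in all other Late nuclei. The value in C1 was therefore lower among deeper nuclei. Over all libraries together it was above the Late nuclei of like depth at each of these minimums, but at 5000 fragments 12 of the 16 nuclei were from WT libraries, and KO replicate 1 (1 of 4 in both sets) and KO replicate 2 (0 of 3 in both) had no excess. Leaving out the 6 nuclei with few ends in peaks gave 65.2% (86 of 132).

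The affected nuclei ranged from a single low chromosome to several. Of the C1 nuclei, 37 had 1 low autosome, 16 had 2, 15 had 3, 14 had 4 and 9 had 5 to 8. In the depth-nearest set, 18 had 1, 8 had 2, 8 had 3 and 3 had more. The extreme case was a nucleus of WT replicate 1 with 5307 fragments and 64.3% of its ends in peaks. Its gene score held 0% of the usual share of chromosome 3 and between 0.212% and 1.76% of the usual shares of chromosomes 1, 10, 11 and 18. That is, 5 autosomes had next to no gene score in a nucleus with more fragments than the C1 median. Chromosome X was at 1.40% of its usual share in the same nucleus.

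Other C1 nuclei came close to it. In WT replicate 1, a nucleus of 5139 fragments held 5.08% of the usual share of chromosome 7 and 3.71% of chromosome 11, and one of 2288 fragments had 0% of chromosome 10 and 1.88% to 4.82% of chromosomes 5, 6 and 16. In WT replicate 2, a nucleus of 4556 fragments held 3.83% of chromosome 1 and 3.13% of chromosome 3. In KO replicate 3, a nucleus that the authors classed as Int, with 6812 fragments, held 5.76% of chromosome 8. Chromosome X was at 8.27%, 0%, 1.20% and 80.3% of its usual share in these nuclei, in the order given. All 6 libraries except KO replicate 1 held at least 1 C1 nucleus with an autosome under 0.1, and 4 of the 10 came from WT replicate 1.

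**Figure D3:**
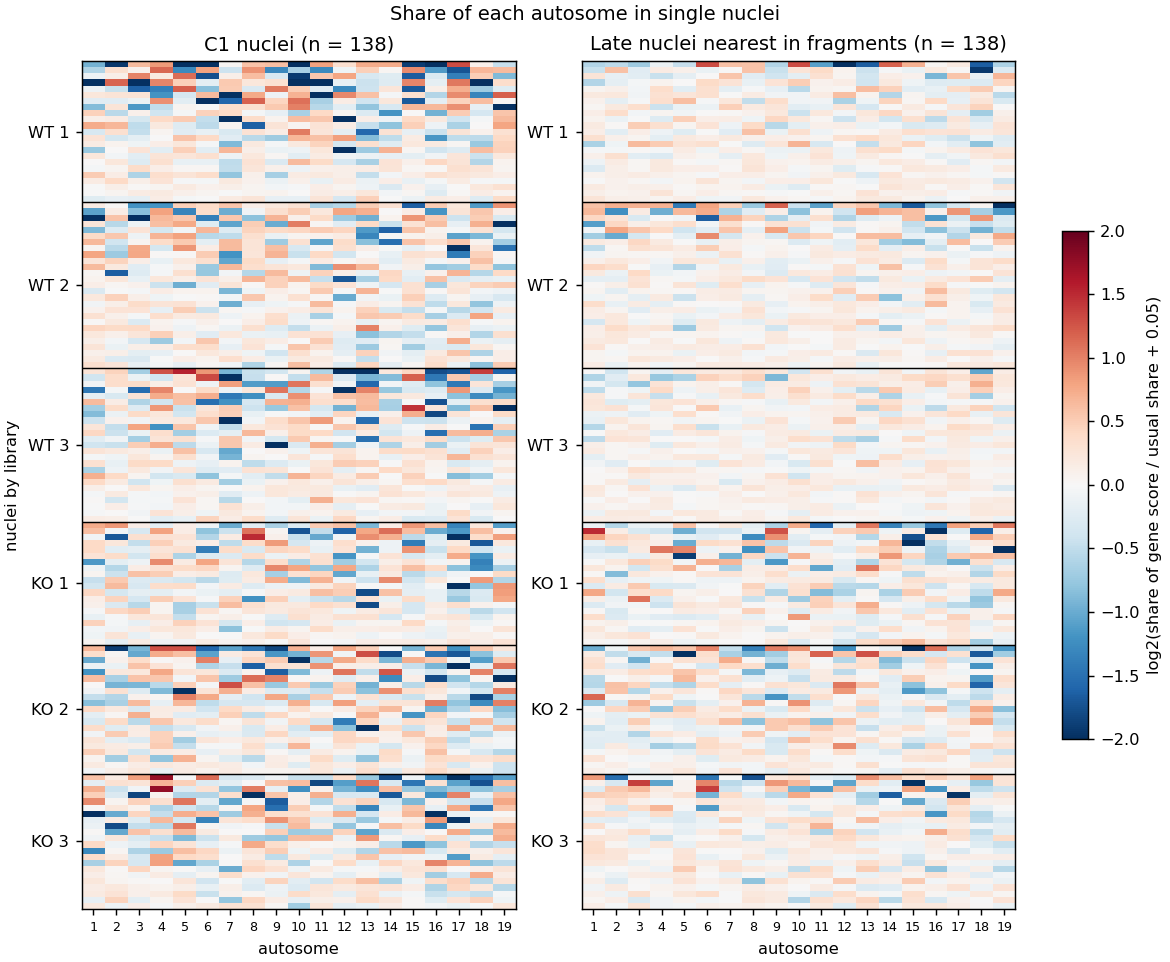
Relative share of each of 19 autosomes (x axis) in each C1 nucleus (left) and in each depth-nearest Late nucleus (right), as log2(relative share + 0.05) in colour and grouped by library (y axis, nuclei with the most low autosomes at the top of each library). Dark blue cells, chromosomes with a share under about 0.25, are spread over many chromosomes and all 6 libraries in C1, those under 0.1 over all but KO replicate 1, and nuclei at the bottom of each library are even in both sets.

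A low share did not always extend over a whole chromosome. Each autosome was divided at its middle gene, and relative shares were computed for the side nearer the centromere and for the distal side. In C1, 58 pairs of nucleus and autosome had a relative share under 0.25, and in 36 of them both sides were under 0.25. A further 37 pairs, in 26 nuclei, had 1 side under 0.25 and the other above 0.75. Of these, 32 were low on the side nearer the centromere and 5 on the distal side. The depth-nearest set had 12 pairs under 0.25, with both sides low in 4, and 9 pairs with 1 side low, 7 of them nearer the centromere.

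No single chromosome accounted for the pattern. Among the autosomes, a relative share under 0.5 was most frequent for chromosome 7, in 21 C1 nuclei against 1 depth-nearest nucleus, followed by chromosome 16 (20 against 6), chromosome 17 (19 against 2), chromosome 13 (18 against 1) and chromosome 18 (16 against 9). It was rarest for chromosome 4, in 5 C1 nuclei against 2. Chromosome X, which is not counted as a low autosome above, was under 0.5 in 25 C1 nuclei against 9 depth-nearest nuclei. Gains of more than 2 times the usual share were fewer, in 6 C1 nuclei for chromosome 5, 5 for chromosome 4, 5 for chromosome X and 4 for chromosome 8. Since shares within a nucleus sum to a constant, low shares of some chromosomes raise the others.

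Averaged over nuclei, small shifts remained. Chromosome 4 held 7.17% ± 0.538 of the gene score of C1 and 6.27% of that of the other Late nuclei, higher in 6 of 6 libraries (log2 ratio 0.19 ± 0.10). Chromosome 3 was lower in 6 of 6, at 3.75% ± 0.142 against 3.96%. Chromosome 7 was lower in 5 of 6, at 8.07% ± 0.568 against 8.88% (log2 ratio -0.14). Chromosomes 16 and 18 (-0.14 each) and chromosomes 6, 12, 13 and 17 were also lower in 5 of 6. Chromosome 5 was higher in 5 of 6 (0.12). The remaining autosomes were more evenly divided between libraries.

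A single number per nucleus sums this up: the SD over the 19 autosomes of log2(relative share + 0.05), here called unevenness. Its library medians in C1 were 0.574, 0.390 and 0.493 in WT and 0.537, 0.638 and 0.546 in KO, on average 0.530 ± 0.0837. The other Late nuclei had 0.197 ± 0.0244 and the depth-nearest nuclei 0.288 ± 0.0953. Cluster C4, a group of 143 nuclei with a lower median depth than C1, 2232 fragments, had 0.273 ± 0.0213, and 11.2% of its nuclei had a low autosome. C4 differed from C1 in more than depth. Its ends in peaks made up 28.5% and its enrichment at start sites was 17.7, against 62.8% and 35.1 in C1 (means of library medians). Its shares were also set against those of Late nuclei, so C4 does not show what low depth alone gives.

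C1 was not alone in this property. Cluster C2 is made of KO nuclei for the most part, and its 188 WT nuclei, with a median of 2101 fragments, had a low autosome in 72.9% of cases and an unevenness of 0.609 ± 0.121. The 74 KO nuclei of C3, a cluster of WT nuclei for the most part, had a low autosome in 36.5% (median 2532 fragments, unevenness 0.350 ± 0.0428). For comparison, the share was 18.6% in KO nuclei of C2 and 7.69% in WT nuclei of C3. Nuclei that the clustering placed with the other genotype thus had low autosomes more often than the majority around them, and they were shallower as well. With at least 2000 fragments, it was 69.4% of WT and 16.3% of KO nuclei of C2, and 38.3% of KO and 6.83% of WT nuclei of C3. With at least 5000, it was 2 of 10 WT nuclei and 9.52% of KO nuclei of C2. In C3 it was then 5 of 14 KO nuclei and 2.75% of WT nuclei. The part of depth in this was not tested. Cluster C5 showed it too, in 2326 nuclei of both genotypes: 663 (28.5%) had a low autosome at a median of 4716.5 fragments, with an unevenness of 0.335 ± 0.0639. Among C5 nuclei with at least 5000 fragments the share was 32.2% (352 of 1093), beside 38.1% in C1, and by library it was 52.5% to 59.5% in WT and 20.2% to 28.7% in KO.

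**Figure D4:**
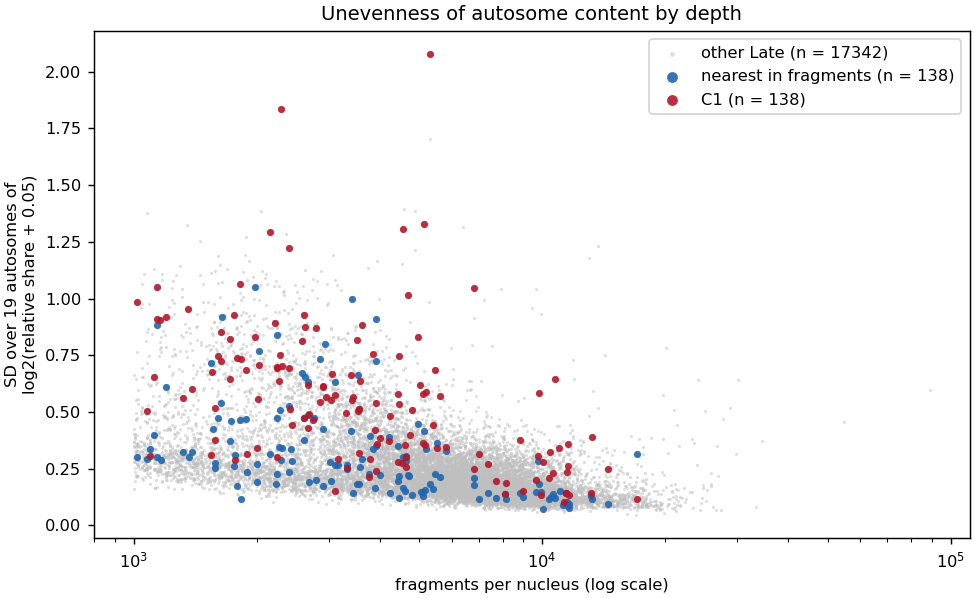
Unevenness of autosome content (y axis, SD of log2(relative share + 0.05) over 19 autosomes) against fragments per nucleus (x axis, log scale) for each nucleus of C1, of the depth-nearest Late set and of all other Late nuclei. Points spread upward toward low depth, and many C1 nuclei lie above the depth-nearest nuclei at the same number of fragments, with the highest C1 nucleus at 5307 fragments.

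Gene by gene, set against all other Late nuclei, C1 differed mostly by lower scores of weakly scored genes. Of 9859 genes with a mean score of at least 20 in both sets together, 712 (7.22%) were lower in C1 in all 6 libraries and 250 (2.54%) were higher. With a mean difference of at least 1 on the log2 scale, 222 genes (2.25%) were lower and 17 (0.172%) higher. The median over all genes was -0.16. It depended on the level: -0.33 for genes scored 20 to 50, -0.18 for 50 to 100, -0.05 for 100 to 200 and 0.01 for 200 and above. Over the same genes the median was -0.47 without the C1 nuclei above their library's median doublet enrichment, and values given without those nuclei are to be read against that shift. Against the 665 Late nuclei nearest in fragments the median over these genes was -0.12. Against the 1 depth-nearest nucleus of each, 138 nuclei against 138, it was -0.01. The median thus differed with the number of Late nuclei set beside C1, and the part of that number was not tested. Of 9797 genes that passed the filter with 138 nuclei in both sets, 128 were lower and 71 higher by at least 1 in 6 of 6 libraries. These counts carry more sampling noise because both sets hold 138 nuclei. The count of 17 was 10 without the 6 nuclei with few ends in peaks and 38, 31 and 29 without KO replicates 1, 2 and 3, and the count of 222 was 350 without KO replicate 1; with 1 library fewer, agreement of all libraries is easier to reach.

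The sparse coverage of C1 shows in its most different genes. Of the 12 genes with the largest differences above the other Late nuclei, 7 (Grik2, Syt1, Trhde, Ryr2, Ptprd, Pclo and Cntn5) are long genes best known from nerve or muscle cells, and a single nucleus held between 36.4% and 51.5% of the summed C1 score of each. Their differences were 1.08 to 1.56, and 0.46 to 0.85 without the 6 nuclei with few ends in peaks. Grik2, a glutamate receptor subunit, scored 24.0 to 46.7 in 5 C1 libraries and 215 in KO replicate 3, against 11.1 to 19.3 in the other Late nuclei. Another 3 of the 12, the transporter gene Slc29a4, Lipt2 of lipoic acid synthesis and the dipeptidase gene Dpep1, had scores in only 17 to 27 C1 nuclei. The remaining ones, Mir7240 and Pim3, drew no more than 10.1% of their sum from 1 nucleus. The 12 lowest genes were scored in few C1 nuclei; the lowest, Zfp790, which encodes a zinc finger protein, had a score in 7 C1 nuclei and a difference of -2.32.

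Among genes scored at 100 or more, differences rested on more nuclei. Mir7240 (8, 70798135 to 70798192, plus strand), the gene of the microRNA shown above, had scores of 520, 583 and 403 in WT and 330, 304 and 269 in KO libraries of C1. In the other Late nuclei they were 106, 109 and 123 in WT and 145, 140 and 150 in KO. Every C1 library lay above every library of the other Late nuclei, with a difference of 1.56 ± 0.64. A score was found in 58 C1 nuclei (42.0%), against 18.5% of the 5 depth-nearest Late nuclei of each.

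Mast3, which encodes a serine/threonine kinase and is read from the minus strand, lies 1147 bases from Mir7240 in the deposited gene positions and shares its surroundings, so these are not independent measurements. Its scores in C1 were 257, 252 and 183 in WT and 165, 131 and 106 in KO, against 70.5 to 91.9 in the other Late nuclei (1.05 ± 0.64). Of the 18 genes within 100 kb of Mast3, Mir7240 was the only other one that was higher in all 6 libraries.

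Pim3, a serine/threonine kinase gene of the Pim family, scored 119, 122 and 145 in WT and 430, 162 and 295 in KO in C1, against 44.9, 56.6 and 58.3 and 112, 122 and 131 (1.17 ± 0.49). In each library it was higher in C1 than in the other Late nuclei, and in both sets every KO library was above every WT library. Cs, the citrate synthase of the Krebs cycle, scored 101 to 201 in C1 against 56.2 to 83.0 (1.01 ± 0.38). Gps1, a subunit of the COP9 signalosome, scored 137 to 237 against 76.4 to 90.4 (0.97 ± 0.25), together with its neighbour Rfng (0.91 ± 0.19), which encodes a modifier of Notch receptors. Tusc1 (0.91 ± 0.38), Atf1 (0.79 ± 0.65), a transcription factor of the CREB family, and Amz2 (0.78 ± 0.28), a metallopeptidase gene, were also higher in 6 of 6 libraries. Against the 1 depth-nearest Late nucleus of each, Tusc1 differed by 0.54 and Pim3 by 0.78, while Mir7240 differed by 2.61, Mast3 by 1.66 and Atf1 by 1.27.

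Other genes scored at 100 or more were lower in C1 in 6 of 6 libraries. Tmem131l scored 134, 67.1 and 97.2 in WT and 65.6, 300.2 and 199 in KO, against 272 to 332 (-1.27 ± 0.80). Dapk2, a death-associated protein kinase, scored 58.1 to 220 against 244 to 305 (-1.25 ± 0.72). Slc22a4, the ergothioneine transporter, scored 34.6 to 93.7 against 129 to 180 (-1.21 ± 0.55). Msantd1 (-1.24 ± 0.88), Mir7052 (-1.50 ± 0.93), Trim15 (-1.13 ± 0.47) and Magef1 (-1.12 ± 0.70) were likewise lower in 6 of 6 libraries. Against the 1 depth-nearest Late nucleus of each, Mir7052 differed by -0.58 and the other 6 by -1.05 to -1.43.

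**Figure D5:**
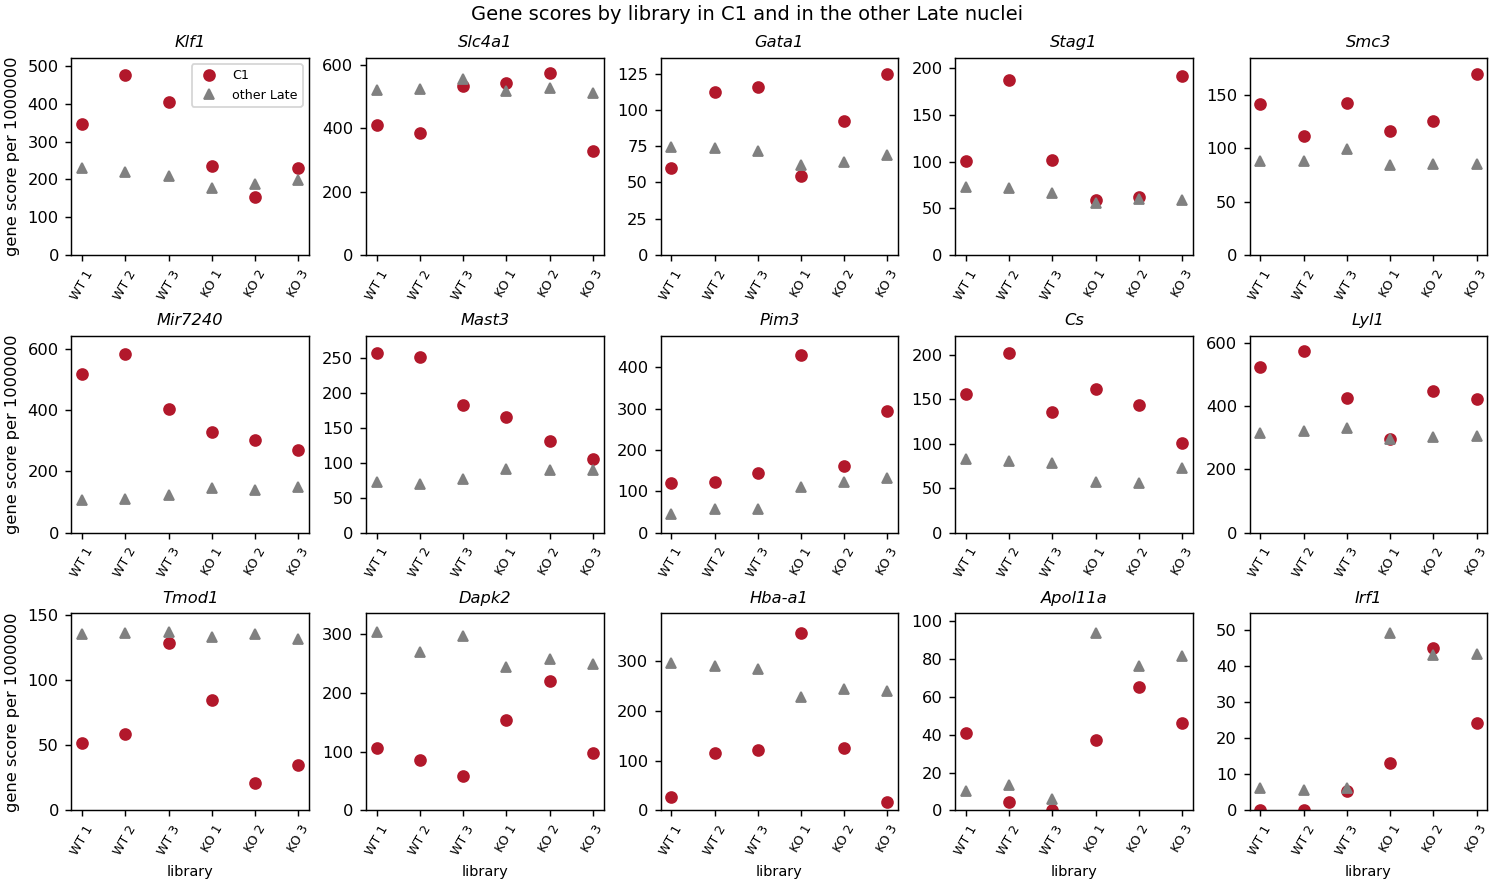
Gene scores per 1000000 (y axes) in C1 and in the other Late nuclei of each library (x axis) for 15 genes named in the text. Mir7240, Mast3, Pim3 and Cs lie higher in C1 in every library, Tmod1 and Dapk2 lower, and the C1 points scatter more than those of the other Late nuclei.

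The globin genes, which encode the chains of hemoglobin, were lower in C1 in most libraries and uneven between them. The 9 globin genes in the table summed to 872, 1119 and 1637 in WT and 2087, 1825 and 1370 in KO libraries of C1, against 2334, 2187 and 2310 and 1913, 2094 and 2080. KO replicate 1 was the exception, above its Late nuclei. The mean sum was 1485 ± 452 in C1, 2153 ± 158 in the other Late nuclei and 1435 ± 130 in the Int nuclei outside C1, so C1 lay nearer to Int. Of 6 globin genes past the filter, 1 was lower in 6 of 6 libraries, Hbq1a (-0.48, and -0.21 without WT replicate 1), where 7.22% of all genes were lower. The median over the 6 was -0.59, against -0.16 over all genes; against the 1 depth-nearest Late nucleus of each the median was -0.75. Hba-a1, an adult alpha globin gene, scored 27.7, 116 and 122 in WT and 357, 125 and 15.9 in KO, against 227 to 296 (-1.59 ± 1.55), and a score was present in 16.7% of C1 nuclei against 46.0% of the depth-nearest ones. Hbb-bs, an adult beta globin gene, scored 211 to 515 against 356 to 448 (-0.34 ± 0.50), and turned to 0.29 without the C1 nuclei above the median doublet enrichment; against the 1 depth-nearest it was -0.71. Hba-a1 and Hba-a2 are near-identical copies, and how fragments were divided between them is not given in the sources used here.

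Among genes of the red cell's membrane skeleton, iron supply and organelle clearance, 11 were lower in C1 in 6 of 6 libraries and 0 were higher, where 7.22% of all genes were lower and 2.54% higher in this way. Of 14 membrane skeleton genes past the filter 3 were lower in all 6 libraries (median -0.42), among them Tmod1, which caps actin filaments in the skeleton, at 52.1, 58.4 and 129 in WT and 84.6, 21.3 and 34.9 in KO against 132 to 137 (-1.23 ± 0.82). Of 14 iron genes 5 were lower (median -0.31): Tfrc, the transferrin receptor (-0.41 ± 0.29), the mitochondrial iron importer Slc25a37 (-1.01 ± 0.50), the reductase Steap3 (-0.91 ± 0.54), Ncoa4, which delivers ferritin to autophagy (-0.56 ± 0.43), and Ireb2 (-1.29 ± 0.85). Against the 1 depth-nearest Late nucleus of each, Slc25a37 differed by only -0.11 and Steap3 by -0.42, and Tfrc by -0.69. Of 18 mitophagy and autophagy genes 3 were lower (median -0.23). Bnip3l, the receptor through which maturing red cells clear mitochondria, was the steadiest, at 103 to 137 in C1 against 182 to 200 (-0.60 ± 0.12). The sums differed less clearly. Membrane skeleton genes summed to 2338 in C1 against 2697, with C1 higher in 2 of 6 libraries. Iron genes summed to 2181 against 2410, higher in 1 of 6. Mitophagy and autophagy genes summed to 2129 against 2192, higher in 3 of 6. In the Int nuclei outside C1 these sums were 2264, 2155 and 1702, in the same order. C1 was thus nearer to Int than to Late in the membrane skeleton and iron sums, and nearer to Late in the mitophagy sum.

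Erythroid markers, heme synthesis, surface proteins and enucleation were read in the same way, beside 7.22% of all genes lower and 2.54% higher in 6 of 6 libraries. Of 13 erythroid markers 2 were lower in 6 of 6 and 0 higher (median -0.43), the lower ones being Tfrc and Alas2, the first enzyme of erythroid heme synthesis (-0.57 ± 0.36). Of 13 heme synthesis genes only Alas2 was lower in 6 of 6 (median -0.11), a share near that of all genes. Of 12 genes of blood group and surface proteins 1 was lower, Kel (-0.97 ± 0.62; median -0.26), again near the share of all genes. Of 17 genes of enucleation and nuclear condensation 2 were lower, Wdr26 (-0.57 ± 0.45) and Plek2 (-0.81 ± 0.63), and 1 was higher, Capzb of the actin capping protein (0.34 ± 0.27; median -0.05). Against the 1 depth-nearest Late nucleus of each, Kel differed by -0.33 and Capzb by 0.01. Sums in C1, in the other Late nuclei and in the Int nuclei outside C1 were 2364, 2855 and 2409 for erythroid markers. They were 2220, 2541 and 2030 for enucleation, 2254, 2147 and 2018 for heme synthesis and 2013, 2119 and 2179 for surface proteins. C1 was thus nearer to Int in the first 2 of these lists and nearer to Late in the others. Without the C1 nuclei above the median doublet enrichment, where the median of all genes was -0.47, the medians were -0.81 for surface proteins and -0.71 for enucleation, below the membrane skeleton (-0.54), iron (-0.45) and mitophagy (-0.31) genes.

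The erythroid transcription factors were higher in C1 as a sum in most libraries, while few single genes moved in every library, near the shares of all genes. Their 23 genes summed to 4380 ± 209 in C1 and 4031 ± 226 in the other Late nuclei, higher in 5 of 6 libraries. Of 21 past the filter, 1 was higher in all 6 libraries (2.54% of all genes were), Lyl1, a member of the Tal1 family, at 525, 574 and 425 in WT and 297, 449 and 423 in KO against 297 to 330 (0.49 ± 0.29). Tal1 was higher in 5 (0.57 ± 0.41), and Foxo3, a factor of late maturation, was lower in 6 (-0.42 ± 0.22), as 7.22% of all genes were. Against the 1 depth-nearest, Tal1 differed by 0.88. Lyl1 differed by 0.20 without the C1 nuclei that had an autosome under 0.25. The median of the list was 0.09, and it was -0.04 with nuclei weighted by their fragments, where the sum was again higher in 5 libraries. It was -0.16 without the C1 nuclei above the median doublet enrichment, where the sum was higher in 4.

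Among the cohesin genes, Stag1 and Smc3 were higher in C1. Of 14 genes of cohesin and CTCF past the filter, 2 were higher in 6 of 6 libraries and 0 lower, where 2.54% of all genes were higher and 7.22% lower (median 0.03, and -0.02 without the C1 nuclei above the median doublet enrichment). Stag1 scored 101, 187 and 101 in WT and 59.2, 62.2 and 192 in KO, against 72.8, 72.0 and 66.4 and 55.9, 60.4 and 58.5 (0.68 ± 0.66); KO replicates 1 and 2 exceeded the other Late nuclei by little. Smc3, a core subunit of the ring, scored 142, 112 and 142 in WT and 116, 126 and 170 in KO against 84.4 to 99.1 (0.57 ± 0.22). Rad21 (-0.01 ± 0.63) and Stag2 itself (-0.06 ± 0.82) went both ways.

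Housekeeping and early response genes were higher as sums. Of all genes, 2.54% were higher and 7.22% lower in every library. The 17 housekeeping genes summed to 2842 ± 188 in C1 and 2467 ± 28.8 in the other Late nuclei, higher in 6 of 6 libraries, with 2 of 16 past the filter higher in every library, Eef1a1 (0.63 ± 0.34) and Ywhaz (0.27 ± 0.32; 0.15 without KO replicate 1). The median over the 16 was 0.01, so the sum was carried by its highest members, such as Actb, at 348 to 681 against 363 to 395. The 21 immediate early genes summed to 2914 ± 175 against 2555 ± 162, higher in 6 of 6, with 0 of 14 higher or lower in every library (median 0.09). Without the C1 nuclei above the median doublet enrichment, the medians were -0.26 for the housekeeping and -0.26 for the immediate early genes, both above the -0.47 over all genes, and each sum was higher in 5 of 6 libraries. Against the 1 depth-nearest Late nucleus of each, the immediate early sum was higher in 4 of 6 libraries (2914 against 2660) and the housekeeping sum in 5 of 6. The 30 genes of replication and mitosis summed to 3064 ± 274 against 2973 ± 119, with Ccnd3 (-0.38 ± 0.22; -0.24 against the 1 depth-nearest) and Bub1 (-1.41 ± 1.19) lower in 6 of 6.

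Marker lists of other blood and marrow cells summed to less than the erythroid markers in C1 (2364), but not all were below the other Late nuclei. The 15 macrophage markers summed to 448 ± 83.8 against 357 ± 13.1, higher in 5 of 6 libraries, from 294 to 521 in C1. Most of that sum was Cd68 (276 against 208; 0.37 ± 0.38), which red cell precursors scored in the other clusters as well, and Hmox1; the defining marker Adgre1 was at 8.07 against 3.04. The 15 neutrophil markers summed to 251 against 284, with Lcn2 and S100a8 listed at 0 in C1. Lcn2 was also listed at 0 in every library of the other Late nuclei, as was Eef2, a translation elongation factor that every cell uses, so a listed 0 can be a property of the table. Of the other marker lists, 4 had higher mean sums in C1. These were monocytes (296 against 283, higher in 4 of 6 libraries), T and NK cells (221 against 198, 5 of 6), endothelium (175 against 158, 4 of 6) and stroma (222 against 205, 1 of 6). Mean sums were lower for mast cells (103 against 130, higher in 0 of 6), B cells (204 against 272, 1 of 6), megakaryocytes (270 against 362, 1 of 6) and stem cells (297 against 402, 0 of 6). The stromal mean rests on KO replicate 3, at 508 against 211; in the other 5 libraries C1 was lower, at 134 to 198 against 196 to 211. Their part in the differences above was not tested.

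The remaining lists showed few differences. Of 10 p53 targets past the filter only Gadd45a was lower in 6 of 6 (-0.82 ± 0.75), and of 14 interferon-stimulated genes 0 were higher or lower in every library (median -0.17), where 7.22% of all genes were lower and 2.54% higher.

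Stag2 KO and WT libraries were then compared within C1. Limma called 0 of 9794 genes (0.0%) at a Benjamini-Hochberg adjusted p under 0.05, with 723 genes (7.38%) under an unadjusted p of 0.05 and a smallest adjusted p of 0.468. For 1315 genes (13.4%) all KO libraries of C1 lay on 1 side of the WT libraries. In the other Late nuclei of the same libraries, the same fit called 4546 of 9880 genes (46.0%), 1862 (18.8%) higher and 2684 (27.2%) lower in KO. Which direction held more calls depended on the filter: with no filter, 7750 of 24333 genes were higher and 2591 lower in KO. In the 138 depth-nearest Late nuclei, as many nuclei per library as in C1 and of like depth, it called 0 of 9770 genes (0.0%), with 724 (7.41%) under an unadjusted p of 0.05. Without WT replicate 1 a single gene was called in C1, Klhl21, an adaptor of a ubiquitin ligase (log2 difference 4.65, limma adjusted p 0.0284).

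The gene targeted in the KO does not separate the genotypes in this measure. Stag2 (X, 42149412 to 42277186, plus strand) scored 78.6, 93.3 and 64.1 in the WT and 40.7, 24.7 and 142 in the KO libraries of C1, which overlap. The limma difference KO minus WT was -0.50 (SE 0.57, adjusted p 0.864) in C1 and -0.08 (adjusted p 0.163) in the other Late nuclei. A gene score sums accessibility over the gene and its surroundings, so a deletion inside the gene need not lower it.

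Genes with a known KO effect in the other Late nuclei were read in C1 as well. Apol11a, of the apolipoprotein L family, scored 41.1, 4.17 and 0 in WT and 37.4, 65.0 and 46.2 in KO; WT replicate 1 lay among the KO libraries. Its difference in C1 was 2.06 (SE 0.89, limma adjusted p 0.667), against 2.62 (SE 0.14, adjusted p 1.84e-08) in the other Late nuclei. Irf1, an interferon response factor, scored 0, 0 and 5.48 in WT and 13.1, 45.0 and 24.2 in KO, and these groups did not overlap, but it was below the filter in C1. In the other Late nuclei it scored 5.69 to 6.17 in WT and 42.9 to 49.0 in KO (2.19, limma adjusted p 2.14e-10).

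Others of these genes, and Gpc4, had scores in few C1 nuclei. Gmpr, GMP reductase, scored 0, 1.51 and 11.3 in WT and 27.3, 41.1 and 8.92 in KO, with an overlap, against 6.54 to 7.75 and 40.7 to 44.0 in the other Late nuclei. Gata2, the factor that Gata1 replaces during erythroid maturation, scored 16.4, 0.826 and 13.5 in WT and 7.32, 2.40 and 0 in KO, while in the other Late nuclei it was higher in KO (11.8 to 12.9 against 29.6 to 30.3). Gpc4, a glypican, scored 29.0, 9.55 and 3.29 in WT and 9.61, 0 and 0 in KO. It was below the filter in the other Late nuclei, so no KO effect of Gpc4 is given there. P2ry1, an ADP receptor, scored 86.1, 18.2 and 12.6 in WT and 22.8, 0 and 24.0 in KO, with a difference of -1.07 in both sets (SE 0.99 in C1, limma adjusted p 0.826, and SE 0.05, adjusted p 7.72e-09, in the other Late nuclei). Each of these scores in C1 came from 6 to 16 nuclei.

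KO and WT libraries of C1 did not overlap for 13.4% of all genes, and Hba-a2, Klf1, Mir7240, Mast3, Hbq1a and Pim3 were among them. Hba-a2, an adult alpha globin gene, scored 37.8, 68.4 and 108 in WT and 274, 214 and 317 in KO (1.93, SE 0.42, limma p 0.000226, adjusted p 0.494), against 280 to 327 and 250 to 308 in the other Late nuclei (-0.12, SE 0.07, adjusted p 0.184). Klf1 in C1 was lower in every KO than in every WT library, by 0.99 on the log2 scale in the fit (-0.99, SE 0.31, limma p 0.00531, adjusted p 0.505). In the other Late nuclei it was lower as well (-0.22, SE 0.05, adjusted p 0.00218). Mir7240 was lower in KO in C1 (-0.72, SE 0.28, adjusted p 0.659) and higher in KO in the other Late nuclei (0.35, SE 0.05, adjusted p 0.00012). Pim3 was higher in KO in both (1.07, SE 0.38, adjusted p 0.603, and 1.12, SE 0.08, adjusted p 2.52e-07).

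The KO effects in C1 and in the other Late nuclei were also set against each other on the differences within each library. Both sets come from the clustering, and C2 and C3 divide largely by genotype, so this fit is not independent of how the nuclei were chosen and supports no statement on a difference. Limma called 0 of 9096 genes (0.0%), with 641 (7.05%) under an unadjusted p of 0.05. The difference of effects was -1.07 for Mir7240 (SE 0.29, adjusted p 0.613) and -0.77 for Klf1 (SE 0.31, adjusted p 0.670). It was -0.57 for Apol11a (SE 0.87, adjusted p 0.915) and -0.06 for Pim3 (SE 0.39, adjusted p 0.989). With standard errors of this size, neither equal nor different effects can be read from these values.

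Quality measures of C1 nuclei were compared between the genotypes as well. An exact permutation test of library medians, two-sided, cannot give a p below 0.1, and 5 of 8 measures reached it, each with an adjusted p of 0.16 over the 8. WT libraries of C1 had 4232 ± 224 fragments per nucleus and KO libraries 3159 ± 801 (SD, 3 libraries each; exact p = 0.1). The share of ends in peaks was 65.2% ± 1.27 and 60.5% ± 1.99, the nucleosome ratio 0.714 ± 0.0649 and 0.810 ± 0.0259, the share of ends in blacklisted regions 4.25% ± 0.237 and 6.66% ± 1.08, and the number of genes with a score 3411 ± 101 and 2785 ± 602 (exact p = 0.1 for each). With means over nuclei in place of medians, ends in peaks differed by -1.66 percentage points (exact p = 0.3). Enrichment at start sites and the share of ends in promoters gave an exact p of 0.2 (adjusted 0.229), and doublet enrichment 0.5. By means over nuclei, doublet enrichment was 0.503 ± 0.0725 in WT and 0.717 ± 0.135 in KO (exact permutation p = 0.1, adjusted 0.2). The nucleosome ratio gave an exact permutation p of 0.2 by means. The share of C1 nuclei with a low autosome, examined in addition, was 62.7% ± 2.62 in WT and 69.8% ± 3.04 in KO (exact permutation p = 0.1). Some of these differences were not particular to C1. In the other Late nuclei, median ends in peaks were 64.1%, 64.4% and 66.4% in WT and 60.3%, 60.7% and 61.9% in KO. Ends in blacklisted regions were 4.48%, 4.55% and 4.72% in WT and 5.64%, 5.56% and 5.64% in KO. Their fragments, nucleosome ratio and genes with a score overlapped between the genotypes. Depth, signal and genotype moved together in the C1 libraries, and their parts in the gene differences between KO and WT cannot be told apart.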

How the data were processed

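Deposited were gene scores, a signal per gene and nucleus that the authors had scaled to a sum of about 10000 per nucleus (checked: 9999.855 to 10000.12), for 24333 genes and 34073 nuclei. The deposited table of nuclei gave whole numbers of fragments, ratios, shares and scores of quality, the cluster and the class. Per the submitters' processing notes the build is mm10 and Cell Ranger was used; the weighting of fragments by distance, the clustering settings and the calling of classes are not given in the sources used here. Nuclei were used as listed, with no further filter and none removed as a doublet. The RNA libraries of these nuclei and the other assays were not analysed here.

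Scores were averaged over the C1 nuclei, and over the other Late nuclei, of each library, so that the library is the replicate, and rescaled to a sum of 1000000. Genes with a mean of at least 20 were kept and log2(score + 5) was taken, which understates the change of low genes. KO and WT were compared with limma 3.58.1 in R 4.3.3 (variance trend, two-sided, Benjamini-Hochberg over all genes tested, threshold 0.05), within C1, within the other Late nuclei, and on their difference within each library; the procedure was tested on simulated data. C1 and the other Late nuclei share libraries, so their KO effects are set side by side only. Quality measures were compared by exact permutation of library medians (3 against 3, 20 arrangements, smallest p 0.1). Depth per library and set is given with the results. Wilson intervals are at 95% and cover counting error only.

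The genes always named were Klf1, Slc4a1, Gata1, Stag2, Stag1, Apol11a, Gmpr, Irf1, Gata2, Gpc4 and P2ry1, then the 12 highest and 12 lowest differences of C1 from the other Late nuclei that held in 6 of 6 libraries, genes called in a KO fit, and examples from 25 gene lists. Genes scored at 100 or more were named by the same rule after the data were seen, as the chromosome analysis was. The members and lists were chosen with earlier results of these data known. Python 3.11.15, numpy 2.4.6, pandas 2.3.3, scipy 1.17.1 and matplotlib 3.10.9 were used. No pairing of WT and KO libraries by replicate number was seen. Same-numbered libraries deviated from their group means with correlations over genes from -0.00907 to 0.00906 in C1. Differently numbered ones lay between -0.0378 and 0.0403 there, so C1 says little on a pairing. In the other Late nuclei same-numbered libraries had 0.0554, 0.0535 and -0.0811, within the range of the differently numbered ones (-0.137 to 0.0921). Alternatives were the pseudocount, the filter, quantile normalization, weighting by fragments, the variance trend, depth-nearest Late nuclei, subsets of C1, a replicate block and leaving out each library.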

Additional observations from a re-analysis of the deposited data

Results flagged for a closer look

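The summed score of the 30 genes of replication and mitosis, set against the other Late nuclei of the same library, moved in opposite directions in the genotypes. In WT the sums were 2781, 2843 and 2869 in C1 and 3071, 3087 and 3085 in the other Late nuclei, lower in C1 in 3 of 3 libraries. In KO they were 3215, 3471 and 3204 in C1 and 2852, 2885 and 2857 in the other Late nuclei, higher in C1 in 3 of 3. The log2 ratio of C1 to the other Late nuclei was 0.32 higher in KO than in WT. This difference was not tested. The same search covered 25 lists, the quality measures, the named genes and the chromosomes, and no other item in it moved in opposite directions in this way. A search over this many items can turn up such a pattern with no difference between the genotypes. That the list stood alone therefore gives it no weight. Fewer fragments per nucleus and a lower share of ends in peaks went with the KO libraries of C1, as given above, and their part was not tested.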

How the results depend on the processing

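The comparison of KO with WT in C1 gave 0 called genes under every alternative except without WT replicate 1, so that leaving out 1 library gave 0 to 1, and the difference of effects gave 0 throughout. In the other Late nuclei the count of 4546 became 8056 with a minimum mean of 5 (5137 higher and 2919 lower in KO). It became 2854 with 50 (831 higher and 2023 lower) and 10341 with no filter (7750 higher and 2591 lower). With the replicate number as a block in a paired fit, limma called 0 genes in C1, 4359 in the other Late nuclei and 0 for the difference of effects. No pairing by these numbers was seen, and no other call changed. The 17 genes higher in C1 by at least 1 became 26 with a pseudocount of 1, 4 with 20, 6 with a minimum mean of 50, 27 both with weighting by fragments and against the 5 nearest Late nuclei, 71 against the 1 nearest, 11 with C1 nuclei of class Late only, 10 without those under 40% of ends in peaks, and 16 to 38 when 1 library was left out (38 without KO replicate 1, 31 without KO replicate 2, 29 without KO replicate 3). The 222 lower genes became 52 with a pseudocount of 20, 85 with a minimum mean of 50, 444 with 5, 397 without C1 nuclei above the median doublet enrichment (used because most doublet scores are 0), 128 against the 1 nearest, and 288 to 350 when 1 library was left out (350 without KO replicate 1). Fewer libraries make 6 of 6 easier to reach; the other causes were not tested. Siva1 (0.75) turned to -0.29 with C1 nuclei of class Late only. Against the 5 nearest Late nuclei, the differences of C1 were -4.83 for fragments, by construction, -0.0831 for the nucleosome ratio, -0.0804 for doublet enrichment and -223 for genes with a score; with means in place of medians they were -1768 for fragments and -2.24 percentage points for ends in peaks. C1 made up 0.405% of all nuclei, and 38.1% of its nuclei with at least 5000 fragments had a low autosome. Of the other 191 values of these comparisons, 169 kept their direction within 1.5 times. The remaining 22 were quality measures. For C1 minus other Late nuclei, ends in peaks (-0.114) ranged from -0.391 to 0.245 when 1 library was left out, turning without KO replicate 2, and was -0.943 against the 5 nearest; ends in promoters (1.98) were 0.885 with means and 1.04 against the 5 nearest; ends in blacklisted regions (0.361) were 0.862 with means, 0.577 without WT replicate 3, 0.0808 without KO replicate 1 and 0.111 without KO replicate 2; start site enrichment (1.96) was 1.23 with means. For KO minus WT, means gave -1.66 for ends in peaks (-4.73) and -2.24 for ends in promoters (-4.14), each with an exact p of 0.3, 0.633 for start site enrichment (1.05), which was 0.284 without WT replicate 3, and 0.214 for doublet enrichment (0.0963), which was 0.0444 without WT replicate 1 and 0.0439 without KO replicate 2. Without KO replicate 2, fragments (-1073) differed by -612 and genes with a score (-626) by -282, and without WT replicate 3 the nucleosome ratio (0.0964) differed by 0.0618. At the number and depth of the C1 nuclei, the other Late nuclei gave 0 called genes for KO against WT in place of 4546 (the 1 nearest to each, an alternative chosen after seeing the data), so that 0 calls in C1 do not show an absence of KO effects.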
